A study of Mus musculus with 6 samples.

Results

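The genes that fill, hold and empty the calcium store of the muscle fibre were followed in the quadriceps of AR97Q mice with and without early exercise. The 10 genes were listed by name for their role, with earlier results of these arrays known. They are the calcium pumps Atp2a1 and Atp2a2, the pump inhibitors Sln and Pln, the calsequestrins Casq1 and Casq2, the release channel Ryr1, the junctophilins Jph1 and Jph2, and the cytosolic buffer Pvalb. All 10 were measured, by 13 of the 56605 probes on the array, and all were among the 25005 genes and transcripts tested. AR97Q mice are transgenic and model spinal and bulbar muscular atrophy (SBMA), and were kept on a C57BL/6J background. The promoter that drives the transgene is not given in the sources used here. All 6 samples came from male AR97Q mice at 9 weeks of age. The 3 mice of the exercise group had run on a forced wheel at 5 m/min for 60 min a day, 5 days a week for 4 weeks from 5 weeks of age, and the 3 mice of the sedentary group had not. No wild-type arrays were analysed here, so each difference is between exercised and sedentary mutant muscle.

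In skeletal muscle, an action potential opens the ryanodine receptor (RyR1), calcium leaves the sarcoplasmic reticulum and the fibre contracts. The fibre relaxes when the SERCA pumps return calcium to the store, where calsequestrin binds it, while junctophilins hold the store against the T-tubule. Fast-twitch fibres are known for SERCA1 (Atp2a1), calsequestrin 1 and parvalbumin, and slow-twitch fibres and heart for SERCA2 (Atp2a2), calsequestrin 2 and phospholamban. Sarcolipin, a small membrane protein, binds SERCA and slows calcium uptake.

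Promoters of 7 of the 10 genes were found in the RefSeq table (GRCm38.p6), with none for Atp2a2, Sln or Jph1. The 250 bases before the transcript start are shown for 4 genes whose signals were higher together in the exercise group, and for Casq2, the calsequestrin with the opposite sign. Both strands were searched for the E-box (CANNTG), the TATA box (TATAAA), the MEF2 site and the CArG box, and capitals mark each match. For Jph2 and Pvalb, with 2 windows each, the first listed is shown.
Atp2a1 (chr7:126463074-126463323, minus strand): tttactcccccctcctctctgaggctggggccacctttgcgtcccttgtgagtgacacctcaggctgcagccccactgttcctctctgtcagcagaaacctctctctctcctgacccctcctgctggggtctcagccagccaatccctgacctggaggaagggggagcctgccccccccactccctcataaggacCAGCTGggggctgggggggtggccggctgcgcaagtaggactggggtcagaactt
Casq1 (chr1:172219896-172220145, minus strand): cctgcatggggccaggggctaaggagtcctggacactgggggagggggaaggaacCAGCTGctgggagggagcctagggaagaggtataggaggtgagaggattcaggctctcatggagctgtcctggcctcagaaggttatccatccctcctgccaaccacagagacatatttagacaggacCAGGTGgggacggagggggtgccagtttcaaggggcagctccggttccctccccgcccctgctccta
Jph2 (chr2:163397994-163398243, minus strand): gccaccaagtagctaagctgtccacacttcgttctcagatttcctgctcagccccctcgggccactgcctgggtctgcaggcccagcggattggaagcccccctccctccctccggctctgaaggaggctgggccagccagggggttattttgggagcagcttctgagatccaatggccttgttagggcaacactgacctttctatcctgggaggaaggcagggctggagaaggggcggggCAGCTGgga
Pvalb (chr15:78206401-78206650, minus strand): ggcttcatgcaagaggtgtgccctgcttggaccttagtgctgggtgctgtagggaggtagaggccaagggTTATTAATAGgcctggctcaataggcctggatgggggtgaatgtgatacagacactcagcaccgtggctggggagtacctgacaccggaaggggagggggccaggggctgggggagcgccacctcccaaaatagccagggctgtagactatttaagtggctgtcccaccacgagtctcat
Casq2 (chr3:102086165-102086414, plus strand): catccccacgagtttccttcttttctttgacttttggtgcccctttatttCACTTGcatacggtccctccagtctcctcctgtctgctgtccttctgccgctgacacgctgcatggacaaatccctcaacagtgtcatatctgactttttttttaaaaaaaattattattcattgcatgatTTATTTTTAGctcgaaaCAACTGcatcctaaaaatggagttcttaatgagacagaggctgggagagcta
The Atp2a1, Casq1 and Jph2 windows each held the palindromic E-box CAGCTG, which 13% of the 32851 windows in the table held, whereas any E-box was in 66.2%. It lay 55 bases before the start of Atp2a1, 195 before that of Casq1 and 9 before that of Jph2. This form of the E-box was not a separate motif of the search, and the windows of Ryr1, Pvalb, Pln and Casq2 lacked it. Other E-boxes were in the windows of Pln and Casq2 and in the second window of Pvalb. The Pvalb window held a MEF2 site 180 bases before the start, and the Casq2 window one 69 bases before it, while 2.92% of all windows held one. A TATA box was found only in the Pln window among those of the 7 genes, against 12.4% of all windows. No CArG box was found in any of them, against 1.47% of all windows. The Ryr1 window held no match. These matches describe the letters of the windows, and binding of a factor was not measured.

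Each sample was hybridized to 1 single-colour Agilent array, so a value is the brightness of a spot. It is given here as a multiple of the 75th percentile of that array. Levels are compared only within a gene, except in the sums over marker genes, where bright probes weigh most. Those sums also take in genes that the filter on dim probes left out of the test. The 75th percentile was 250.7 to 257 in processed signal on the exercise arrays and 310.5 to 383.7 on the sedentary arrays, and each array had 54.6 to 59.9% of its probes well above background. The spots of the 10 genes were neither saturated nor outliers. Sedentary 1 was, among the sedentary arrays, the nearest to the exercise mean for all 10 genes, and it is the sedentary array that shared a row of the slide with the 3 exercise arrays. How often sedentary 1 was nearest over all genes tested was not counted. Sedentary 2 and 3 filled the other row. The effect of the row therefore cannot be told apart from the group outside the comparison with sedentary 1 alone, which is given beside the main results.

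The genes did not move in 1 direction. In the exercise group, Pvalb, Casq1, Atp2a1, Jph2 and Ryr1 rose, and Sln and Atp2a2 fell, by limma with a Benjamini-Hochberg adjusted p under 0.05 over all genes and transcripts. Thus 5 of 10 genes were higher, against 11.5% of all tested, and 2 of 10 were lower, against 6.15% of all tested. At the threshold named in the methods, which adds a log2 fold change of 1 or more in size, 4 genes were higher (Pvalb, Casq1, Atp2a1 and Jph2), against 1.72% of all tested. At that threshold 1 gene was lower (Sln), against 1.06% of all tested. Casq2, Jph1 and Pln did not pass. The shares over all tested turned over with the scaling. With the deposited table, 5 of the 10 genes were higher, against 4.69% of all tested, and 3 lower, against 12.8%. Without scaling, 4 were higher, against 2.47%, and 4 lower, against 45.1%. The 3 exercise arrays lay wholly above or wholly below the 3 sedentary arrays for 9 of the 10 genes, against 43.2% of all tested, and Pln was the exception. The median log2 fold change was 0.72 over the 10 genes and 0.03 over all tested. In bulk muscle, fewer fibres of a type and less RNA per fibre cannot be told apart.

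These calls depended on which arrays were in the fit. When exercise 1, exercise 2, exercise 3, sedentary 2 or sedentary 3 was left out, limma called 0 of the 10 genes, with a lowest adjusted p of 0.0587 to 0.0957 over these 5 fits, while 8 to 10 genes had an unadjusted p under 0.05, against 26.7 to 32.6% of all tested. When sedentary 1 was left out, all 10 genes passed, against 22.1% of all tested. With the row of the slide as a block, 0 genes passed, the lowest adjusted p was 0.154, and 6 genes had an unadjusted p under 0.05, against 19.3% of all tested. With this block, the log2 fold change of a gene is the one against sedentary 1 alone, so the block is not a separate check from that comparison. All 10 genes kept their sign in each of these fits.

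**Figure D1:**
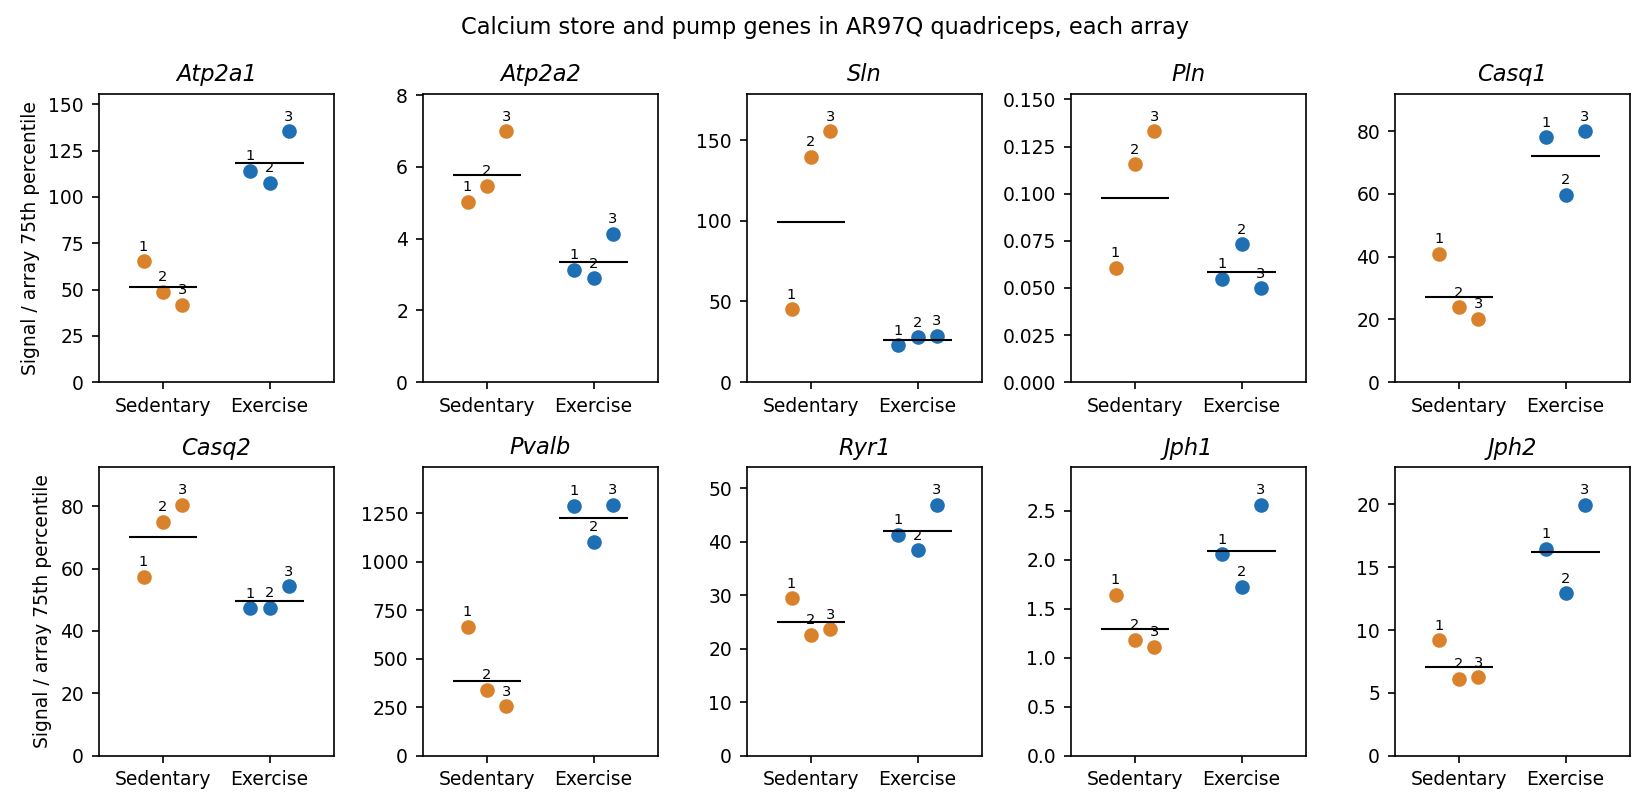
Signal of each of the 10 genes on the 6 arrays, as a multiple of the array's 75th percentile, on a linear axis from 0 in each panel. Points are arrays with their replicate number, lines are geometric means of 3 arrays, and the exercise arrays stand apart from the sedentary arrays in every panel but that of Pln.

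The calcium pumps moved in opposite directions. The signal of Atp2a1, the fast-fibre pump SERCA1, was 114, 108 and 136 times the 75th percentile on exercise arrays 1, 2 and 3, and 65.4, 48.8 and 41.8 times on sedentary arrays 1, 2 and 3. The lowest exercise array was above the highest sedentary array by 1.65-fold, and the sedentary arrays were the more spread. The log2 fold change was 1.21 (SE 0.19, 95% CI 0.76 to 1.67, n = 3 per group), a 2.32-fold rise with a limma adjusted p of 0.0234. Against sedentary 1 alone it was 0.86, and against sedentary 2 and 3 it was 1.39.

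Atp2a2, which encodes SERCA2 of slow fibres and heart, had signals of 3.14, 2.89 and 4.13 on the exercise arrays and 5.03, 5.48 and 7.0 on the sedentary arrays. All exercise values were below all sedentary values. This gave a log2 fold change of -0.79 (SE 0.19, 95% CI -1.24 to -0.34), a 1.73-fold lower signal, with a limma adjusted p of 0.0381. Set against sedentary 1 alone, it was -0.59. A dimmer probe of the same transcript record had a log2 fold change of -0.78 with an adjusted p of 0.0610 over all probes. The third probe, of another Atp2a2 record, ranged from 0.640 to 0.856 in the exercise group and from 0.879 to 0.922 in the sedentary group, with a log2 fold change of -0.29 and an adjusted p of 0.148. The 3 probes had the same sign, and the call held for the brightest alone. When the probes were averaged or the most variable one was taken, the adjusted p of Atp2a2 was 0.0510 and 0.0625.

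Sln, the pump inhibitor sarcolipin, had the largest difference of the 10 genes over the 6 arrays and the widest spread, but not the largest difference from sedentary 1 alone. Its signal was 22.8, 27.9 and 28.8 in the exercise group and 45.2, 139.6 and 155.5 in the sedentary group. The exercise arrays lay close together and below all sedentary arrays, whereas the sedentary arrays spanned 3.44-fold, with sedentary 1 far below the other two. The log2 fold change was -1.92 (SE 0.47, 95% CI -3.06 to -0.77), a 3.77-fold lower signal with a limma adjusted p of 0.0420. In comparison with sedentary 1 alone it was -0.78, and against sedentary 2 and 3 it was -2.48. Without the filter on dim probes, the adjusted p was 0.0508.

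Pln, which encodes phospholamban, the inhibitor of the cardiac and slow-fibre pump, was close to background. Its probe was well above background on 1 of 3 exercise arrays and on 3 of 3 sedentary arrays. The signal was 0.0548, 0.0732 and 0.0499 in the exercise group and 0.0608, 0.116 and 0.133 in the sedentary group, with exercise 2 above sedentary 1. Its log2 fold change was -0.74 (SE 0.32, 95% CI -1.51 to 0.03) with a limma adjusted p of 0.148, so a difference was not detectable. It was -0.06 against sedentary 1 alone, and 0.03 with the normexp background correction.

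The calsequestrins, the calcium-binding proteins inside the store, also had opposite signs. Casq1, the fast-fibre form, had a signal of 78.0, 59.7 and 80.0 in the exercise group and 41.0, 23.8 and 20.3 in the sedentary group. Sedentary 1 stood between the exercise arrays and the other sedentary arrays. Casq1 rose 2.66-fold, with a log2 fold change of 1.41 (SE 0.28, 95% CI 0.73 to 2.09) and a limma adjusted p of 0.0276. Against sedentary 1 alone the log2 fold change was 0.81.

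Casq2, the cardiac and slow-fibre form, had a signal of 47.3, 47.5 and 54.4 in the exercise group and 57.4, 75 and 80.5 in the sedentary group. Exercise 3 was only just below sedentary 1, without overlap. Its log2 fold change was -0.50 (SE 0.15, 95% CI -0.87 to -0.14), with a limma adjusted p of 0.0659, and it was -0.21 against sedentary 1 alone. A dimmer probe of another Casq2 record gave -0.65 with an adjusted p of 0.105 over all probes, and its groups overlapped. Casq2 was the gene most often added by other settings, passing with quantile normalization, no scaling, the deposited table, normexp, a filter on all arrays, a limma trend with robust fitting, and without sedentary 1.

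Pvalb encodes parvalbumin, the soluble buffer that takes up calcium in fast fibres. Its signal was 1289, 1104 and 1295 in the exercise group and 666, 339.7 and 254.5 in the sedentary group. The exercise arrays were alike, and sedentary 1 lay far above the other sedentary arrays. Pvalb rose 3.17-fold, the largest rise of the 10 genes at this scaling, with a log2 fold change of 1.67 (SE 0.34, 95% CI 0.83 to 2.50) and a limma adjusted p of 0.0298. Against sedentary 1 alone the log2 fold change was 0.88. With quantile normalization it was 1.10, with an adjusted p of 0.0557, and below the 1.18 of Casq1.

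Ryr1, the calcium release channel, rose 1.68-fold. Its signal was 41.3, 38.4 and 47.0 in the exercise group and 29.4, 22.6 and 23.6 in the sedentary group, with no overlap. This was a log2 fold change of 0.75 (SE 0.14, 95% CI 0.42 to 1.08, limma adjusted p = 0.0253), or 0.52 against sedentary 1 alone. Without scaling between arrays it was 0.28, with an adjusted p of 0.0960. The probes of the cardiac channel gene Ryr2 were well above background on 0 of the 6 arrays.

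The junctophilins, which tether the store to the T-tubule, both had higher signals, of which that of Jph2 passed the test. Jph2 had a signal of 16.5, 12.9 and 20.0 in the exercise group and 9.19, 6.13 and 6.27 in the sedentary group, so that the groups were clearly apart. Its log2 fold change was 1.20 (SE 0.22, 95% CI 0.65 to 1.74), a 2.29-fold rise with a limma adjusted p of 0.0256, and it was 0.82 against sedentary 1 alone. Jph1 had a signal of 2.06, 1.72 and 2.56 in the exercise group and 1.65, 1.18 and 1.12 in the sedentary group. Exercise 2 was barely above sedentary 1. Its log2 fold change was 0.69 (SE 0.21, 95% CI 0.19 to 1.19, limma adjusted p = 0.0663), and it was 0.34 against sedentary 1 alone.

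The arrays followed a common order. Sedentary 1 was the highest sedentary array for each of the 6 genes with a higher exercise mean, and the lowest sedentary array for each of the 4 genes with a lower one. The SD of the log2 signal was larger in the sedentary than in the exercise group for 9 of the 10 genes, with Atp2a2 as the exception. Within the exercise group, array 3 was the highest for 9 of the 10 genes, Pln being the exception, irrespective of the sign of the difference. These orders and spreads were not counted over all genes tested, so they are not read as a trait of these genes.

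**Figure D2:**
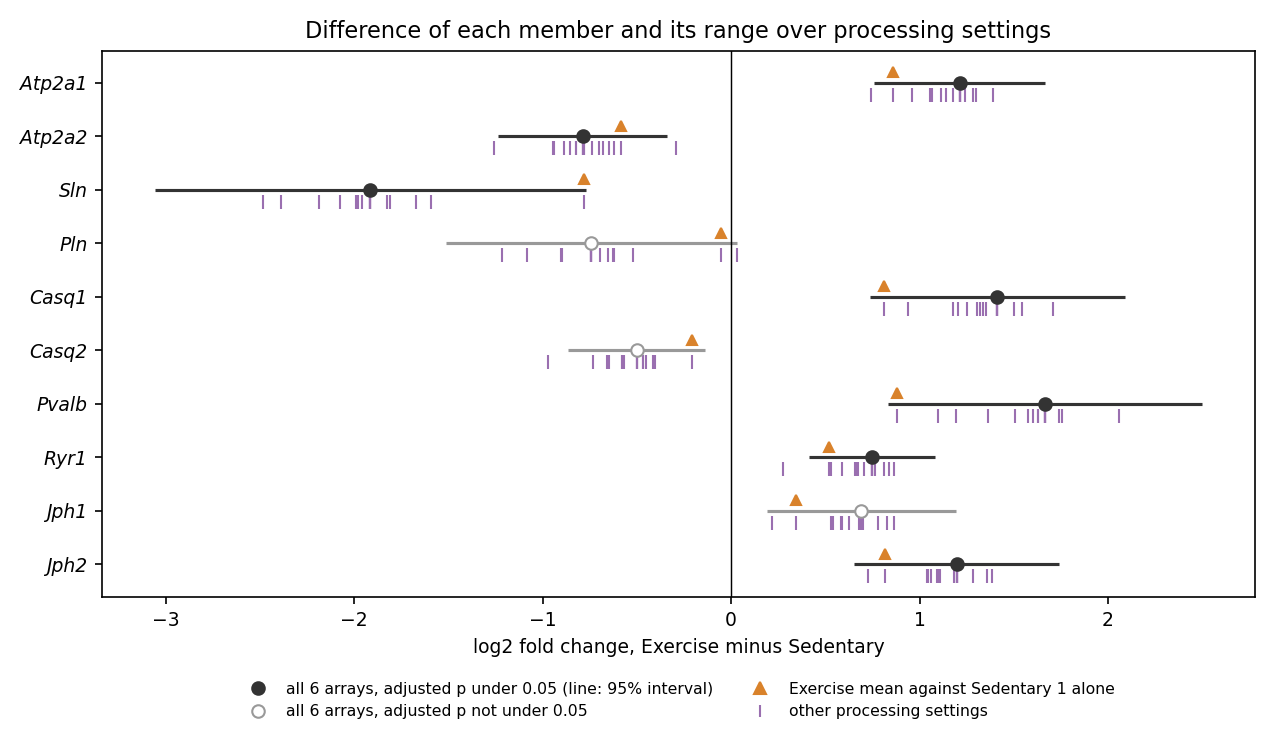
The log2 fold change of each gene, exercise minus sedentary (circles, with 95% intervals from limma), with filled circles for an adjusted p under 0.05. Triangles compare the exercise mean with sedentary 1 alone, and purple ticks are the other processing settings, including single arrays left out. Triangles lie nearer to 0 than circles for all 10 genes, and ticks cross 0 only for Pln.

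Because both genes of a pair were read on the same arrays, the log2 ratio within an array does not depend on a scaling by 1 factor per array. This asked whether the genes of a pair changed unequally. Only the pairs of pumps and of calsequestrins set a fast form against a slow one. The ratio of Atp2a1 to Atp2a2, centred on the mean of the 6 arrays, was 1.04, 1.07 and 0.89 in the exercise group and -0.44, -0.99 and -1.57 in the sedentary group. The groups were far apart, and the change was 2.00 on the log2 scale (SD 0.10 in exercise and 0.56 in sedentary, n = 3 per group), or 4-fold. It was 1.44 against sedentary 1 alone.

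The centred log2 ratio of Casq1 to Casq2 was 1.14, 0.75 and 0.98 in the exercise group and -0.07, -1.23 and -1.57 in the sedentary group. Its change was 1.91 (SD 0.20 and 0.79), or 3.77-fold, and 1.02 against sedentary 1 alone. The ratio of the pump Atp2a1 to its inhibitor Sln changed most of the 4 pairs, by 3.13 (SD 0.20 and 1.31), or 8.74-fold, and by 1.64 against sedentary 1 alone. The ratio of Jph2 to Jph1 changed by 0.51 (SD 0.05 and 0.07), or 1.42-fold, and by 0.47 against sedentary 1 alone, which was not the sedentary array nearest to the exercise group here. In all 4 pairs the groups did not overlap, and the two-sided exact permutation p was 0.1 for each (4 pairs tested), the smallest that 3 arrays against 3 allow. For every pair but Jph2 and Jph1, this outcome was fixed by the single genes. There the exercise arrays were wholly above the sedentary arrays for 1 gene and wholly below them for the other. The p of those pairs therefore adds nothing to the results of the single genes.

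**Figure D3:**
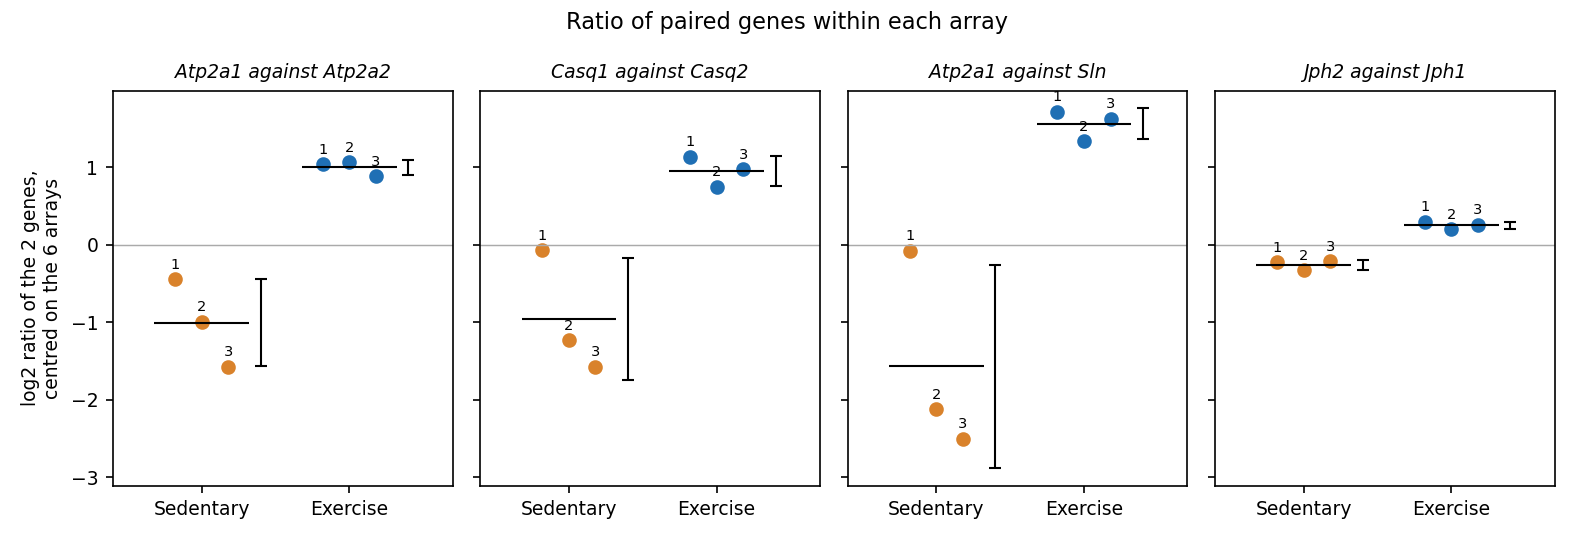
The log2 ratio of the signals of paired genes within each array, centred on its mean over the 6 arrays. Points are arrays with their replicate number, horizontal lines are group means and bars are SD (n = 3). All exercise arrays lie above all sedentary arrays in each panel, and sedentary 1 is nearest to the exercise group in the first 3 panels.

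The other genes of calcium handling were taken from 3 lists with 59 genes, of which 52 were tested. In all, 16 of 52 rose and 0 fell by limma, against 11.5% and 6.15% of all tested. At an unadjusted p under 0.05, 25 were higher and 1 lower, against 21.6% and 15.4% of all tested, and the median log2 fold change was 0.26 against 0.03 over all tested. Of the 16 that rose, 12 were proteins of the store and of its junction with the T-tubule, where 12 of 27 tested genes rose, 0 fell, 20 had groups that did not overlap, against 43.2% of all tested, and the median was 0.42. Among calcium transporters and buffers elsewhere in the cell, 4 of 23 rose, a share near the 11.5% of all tested, 0 fell and the median was 0.09. The 0 genes called lower depend on the scaling. Without scaling between arrays, where the median over all genes was -0.45, 2 of the 52 were higher and 18 lower, against 2.47% and 45.1% of all tested. Set against the median of all tested, the store and junction list lay 0.39 higher, or 0.26 with quantile normalization and 0.26 with normexp. The list of other transporters and buffers lay 0.06 higher, or 0.05 and 0.01 with these settings. As for the 10 genes, limma called 0 of the 52 when exercise 1, 2 or 3 or sedentary 2 or 3 was left out, with 21 to 25 at an unadjusted p under 0.05. When sedentary 1 was left out, 22 were higher, against 13.9% of all tested.

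In the store and junction list, Dhrs7c, a reductase of the sarcoplasmic reticulum membrane, changed most. Its signal was 73.4 to 77.6 in the exercise group and 45.1, 27.2 and 19.7 in the sedentary group, with a log2 fold change of 1.38 (SE 0.29, limma adjusted p = 0.0306). Asph, whose products include junctin and junctate, rose by 0.87 (SE 0.14, adjusted p = 0.0239). Hrc, a histidine-rich calcium-binding protein of the store, rose by 0.86 (SE 0.20, adjusted p = 0.0377). Art1, an ADP-ribosyltransferase, rose by 0.77 (SE 0.19, adjusted p = 0.0429). Against sedentary 1 alone the log2 fold changes were 0.74, 0.61, 0.43 and 0.41 in this order. Dhrs7c, Art1, Atp2a1, Casq1, Jph2 and Sln had been listed by the study from these same arrays, so their array values here are not independent evidence of a direction. For all of these but Sln, the paper also reported a rise by quantitative PCR, which was not re-analysed here.

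Among the other transporters and buffers, Itpr1, the inositol trisphosphate receptor, rose by 0.64 (SE 0.14, limma adjusted p = 0.0343). The calmodulin genes Calm3 and Calm2 rose by 0.60 (SE 0.12, adjusted p = 0.0296) and 0.37 (SE 0.09, adjusted p = 0.0436). Smdt1, a subunit of the mitochondrial calcium uniporter, was the fourth to pass, at 0.37 (SE 0.09, adjusted p = 0.0431). In the list of pump regulators and the other pump gene, 0 of 2 tested genes passed, and 0 had an unadjusted p under 0.05. Arln was the only regulator tested. For the third pump gene, Atp2a3, the log2 difference was -0.27 (95% CI -0.75 to 0.20, adjusted p = 0.353). For Arln, a small membrane protein that binds SERCA, it was 0.12 (95% CI -0.12 to 0.36, adjusted p = 0.401). Erln had 1 probe, which was well above background on 0 arrays, and no probe matched Mrln or Strit1.

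**Figure D4:**
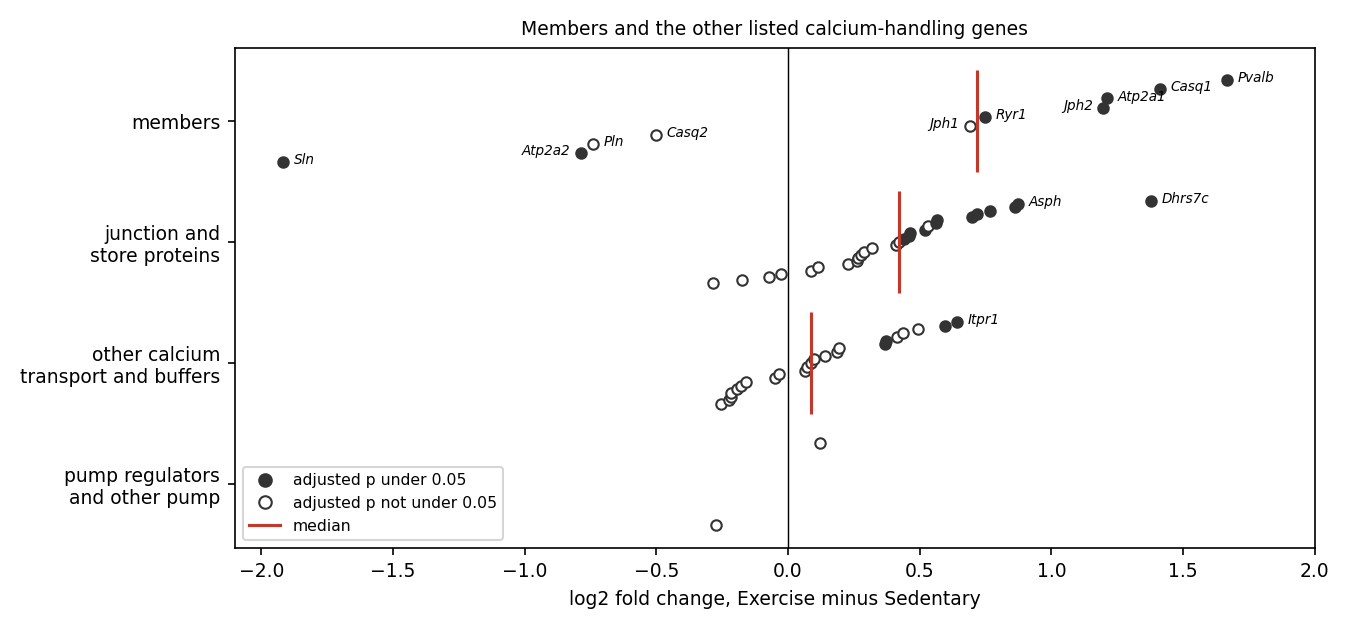
The log2 fold change, exercise minus sedentary, of the 10 genes and of the 52 other calcium-handling genes tested, by list. Points are genes, filled where the limma adjusted p was under 0.05, and red lines are medians, at 0.72 for the 10 genes, 0.42 for the store and junction list and 0.09 for other transporters and buffers. Only among the 10 genes do filled points lie below 0.

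Over the 6 arrays, the profiles nearest to that of Atp2a1 belonged to A830052D11Rik, an unnamed transcribed region and Fam131a, with root mean square differences of 0.04, 0.04 and 0.06 on the log2 scale after centring. Those nearest to Sln were Chrnd, the delta subunit of the muscle acetylcholine receptor (0.10), Tro (0.12) and the cell adhesion gene Nrcam (0.15). At -1.92 (adjusted p = 0.0360), the log2 difference of Chrnd equalled that of Sln at this precision. These likenesses rest on 6 arrays that fall into 2 groups and are a description.

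Markers of skeletal muscle, fast fibres and denervated fibres differed along with these genes, and those of most other cells did not pass the test. By the same test, 11.5% of all tested rose and 6.15% fell, so a single call in a list is not read as a result about that list. For skeletal muscle markers, 6 of 8 rose, 0 fell, and their summed signal was 4374 to 4968 in the exercise group and 2090 to 2966 in the sedentary group. Ttn (0.28, limma adjusted p = 0.32) and Des (0.15, limma adjusted p = 0.31) did not pass. Myh4, Mylpf and Tnnt3 were in this list and also in that of fast fibres, so the lists overlap. For fast fibre markers, 10 of 12 rose, 0 fell, and the sum was 7349 to 8152 and 3941 to 5497. For slow fibre markers, 1 of 9 rose (Myl3), 1 fell (Tnni1), the median was -0.35, and the sum was 457.8 to 633.8 and 397.7 to 482.4. Thus the fast forms in the store rose alongside other fast fibre genes. Atp2a2 was called lower by its brightest probe alone. Of the 9 slow fibre markers, 6 were lower and 3 higher, with log2 fold changes from -1.46 to 0.97, and 7 did not pass the test. Their summed signal, weighted to bright probes, was not lower in the exercise group.

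For markers of denervated and immature fibres, 7 of 10 fell, against 6.15% of all tested. In this list 1, the bright Myh8, rose, the median was -1.28, and the sum was nonetheless 1160 to 1247 and 669 to 914.1. Heart also uses Casq2 and Atp2a2, and for heart muscle markers 0 of 5 tested passed. Only Tnnt2 was lower at an unadjusted p under 0.05, by -1.89 (limma adjusted p = 0.0545). Regardless of the test, 3 of the 5 were higher and 2 lower. Nkx2-5 and Nppb were well above background on 0 arrays, and the sum was 1.68 to 3.07 and 3.20 to 9.38. For smooth muscle markers, 1 of 8 rose (Acta2, by 1.32) and 2 fell. Regardless of the test, 5 of these 8 were lower and 3 higher, with a median of -0.64, although the sum was 444.9 to 507 and 240.3 to 293.4. For adipocyte markers, 1 of 8 rose and 0 fell, with a sum of 238.5 to 625.8 and 423.2 to 546.2, and for Schwann cell markers 1 of 8 fell, with a sum of 43.4 to 52.2 and 49.5 to 66.0. No macrophage or endothelial marker (0 of 8 each) and no red blood cell marker (0 of 5) passed, and 1 of these, an endothelial marker, was lower at an unadjusted p under 0.05. Their sums overlapped between the groups. The part of fibre types, innervation and other cells in the differences of the 10 genes was not tested.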

How the data were processed

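RNA from the quadriceps of 6 male AR97Q mice (3 exercise, 3 sedentary) was hybridized to single-colour Agilent arrays. The authors deposited scanner files from Feature Extraction 12.1.0.3 with the background-subtracted intensity of each spot (the processed signal), its median signal and local background, and other flags. They also deposited a table of values, each column of which was the processed signal times 1 factor (1.33 to 1.88). This intensity table served as an alternative.

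Control spots (3671 of 62976) and outlier spots were left out, spots of a probe were averaged as log2, the 75th percentile of the array was subtracted, and 22 probes with a missing value were dropped. A probe was kept if at least 3 of the 6 arrays had it well above background (32726 of 56605). Probes were named through the RefSeq table (34566 matched), and the brightest probe stood for a gene. The exercise and sedentary arrays were then tested by limma (version 3.58.1, R version 4.3.3; two-sided moderated test, Benjamini-Hochberg over 25005 genes and transcripts, threshold 0.05). Gene ratios within arrays were compared with an exact permutation test. On simulated arrays of this comparison with 25005 genes, the test recovered 59% of 100 genes changed by 1 on the log2 scale and 92% of 100 changed by 2, and called 5 unchanged ones. The simulated noise was independent between genes, with no effect shared by an array or a row of the slide. These figures therefore do not cover errors from such effects. The number of arrays limits the precision.

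The genes, lists and tests were chosen with earlier results of these data known. Named are the 10 genes, the 3 largest changes past the threshold in each list, all pump regulators, Dhrs7c, Art1, and the 3 profiles nearest to Atp2a1 and Sln. Smdt1, Ryr2 and the marker genes Myl3, Tnni1, Myh8, Acta2, Tnnt2, Ttn, Des, Myh4, Mylpf and Tnnt3 were named after their values were seen. The alternatives were other scalings, background correction, probe filters and probe choices, blocks for the replicate number and the row of the slide, each array left out, and a limma trend with robust fitting. The other probes of the 10 genes and the comparison with sedentary 1 alone were added after seeing the data. Same-numbered arrays did not deviate together, so the numbers were not taken as pairs.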

Additional observations from a re-analysis of the deposited data

How the results depend on the processing

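Among the 10 genes, signs were kept under all 18 refits, except Pln with normexp (0.03 against -0.74), and Pln was not tested with the filter on all arrays. Of the counts, higher calls (5) ranged from 0 to 6 over the fits with 1 array left out, and lower calls (2) from 0 to 4. Both were 0 with the replicate block, where the lowest adjusted p of the 10 genes was 0.0606, and 0 with the row of the slide as a block. Same-numbered arrays did not deviate together (r 0.02, 0.08 and 0.04), so the replicate block is not a paired test here. Lower calls were 1 at the methods' threshold, 1 with no filter on dim probes, 1 with the mean of the probes of a gene, 1 with the probe with the largest SD, and 4 with no scaling between arrays.

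For the 52 other genes, higher calls (16) were 1 at the methods' threshold, 3 with the deposited table, 2 with no scaling, 3 with quantile normalization, 0 with either block and 0 to 22 over the fits with 1 array left out. Lower calls (0) were 1 with the deposited table, 18 with no scaling, 1 with normexp, 1 with the probe with the largest SD and 1 with quantile normalization. With the row of the slide as a block, the change of Atp2a1 against Sln was 1.64 and that of Casq1 against Casq2 was 1.02, the same as against sedentary 1 alone. With quantile normalization, the change of Jph2 against Jph1 was 0.38. The causes of these differences were not tested. Over the whole array, limma called 0 to 3 genes with either block or with 1 array left out, except without sedentary 1. Pln near background sets the limit of the signal here.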
